A study of Mus musculus with 10 samples.

Results

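T cells carry the CD3 complex at their surface, so the mRNAs of its chains mark them among other cells. The 10 genes described here are such markers: the CD3 chain genes Cd3d, Cd3e and Cd3g, the T cell receptor alpha constant gene Trac, the kinase gene Lck, the adhesion gene Cd2, the co-receptor gene Cd8a, the granzyme genes Gzma and Gzmb, and the interleukin 7 receptor gene Il7r. They were chosen by name among the 17279 genes of a count table from sorted macrophages, and 10 of the 10 were listed. The libraries were made from CX3CR1-GFP+ macrophages that were collected by flow cytometric sorting from the lamina propria, the connective tissue under the gut lining, of the mouse small intestine 24 h after surgery. There were 5 libraries from sham-operated animals and 5 from animals with pMCAO, the permanent closure of a cerebral artery that models stroke, and the genotype given for all of them was C57BL6/J. The labels name neither the allele that carries the GFP reporter nor the sex or age of the animals, and replicate 1 of each group is named as a pool. The other libraries are called biological replicates, without a statement on how many animals each holds.

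As background, each CD3 chain passes the signal of the T cell receptor into the cell. Lck phosphorylates those chains, CD8 binds class I molecules of the major histocompatibility complex, and granzymes are proteases that cytotoxic lymphocytes release into target cells. The small intestine is rich in T cells, many of them CD8+ and lying between epithelial cells, and part of them carry a gamma delta receptor instead of an alpha beta one. Not each of the 10 genes is limited to T cells: natural killer cells also make granzymes and CD2, and innate lymphoid cells make the interleukin 7 receptor.

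Total counts were between 18894151 and 60665972 in the sham libraries and between 6430643 and 28672285 in the pMCAO libraries. All 15 macrophage markers had counts in each library, with a summed level of 8689 to 19307 CPM in the sham group and 9467 to 18210 CPM in the pMCAO group. CPM, the counts scaled to a common library size, were computed here with TMM factors (trimmed mean of M values). Plasma cell markers also had counts in each library and summed to 6128 to 170775 CPM over both groups. Their sum was above the macrophage sum in all libraries but sham replicate 4 and pMCAO replicates 3 and 4. Immunoglobulin genes took 0.586% to 16.3% of the sham counts and 0.914% to 19.2% of the pMCAO counts. Sham replicate 5 and pMCAO replicate 4 held Xist, an RNA of the inactive X chromosome in female cells, above 100 CPM on total counts (2237 and 4686). The other 8 libraries held 1.27 to 4.88 CPM. Sham replicate 5 and pMCAO replicate 4 are called the libraries with Xist counts below, and marker differences and relations are also given without both. Whether the libraries come from separate animals is known only from the word biological in their labels, and p-values measure the spread between these libraries.

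T cell marker mRNA was present in each of the 10 macrophage libraries, and its amount differed widely between libraries of the same group. The 10 genes together took from 0.00601% of the counts in sham replicate 4 to 0.126% in sham replicate 5, and from 0.00486% in pMCAO replicate 3 to 0.0543% in pMCAO replicate 5. Their summed level was 71.5 to 990.6 CPM in the sham group, with a median of 505.2, and 55.5 to 479.6 CPM in the pMCAO group, with a median of 299.9. The lowest and the highest sham libraries therefore enclosed the levels of 4 of the 5 pMCAO libraries. The part of Gzma and Gzmb in this sum, genes not limited to T cells, differed between libraries. They held 319.2 and 222.7 of the 990.6 CPM in sham replicate 5, and 7.18 and 8.19 of the 55.5 CPM in pMCAO replicate 3. Because the libraries are bulk RNA, the source of the marker mRNA cannot be told from them. The number of T cells, their RNA per cell and RNA from other cells cannot be told apart.

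**Figure D1:**
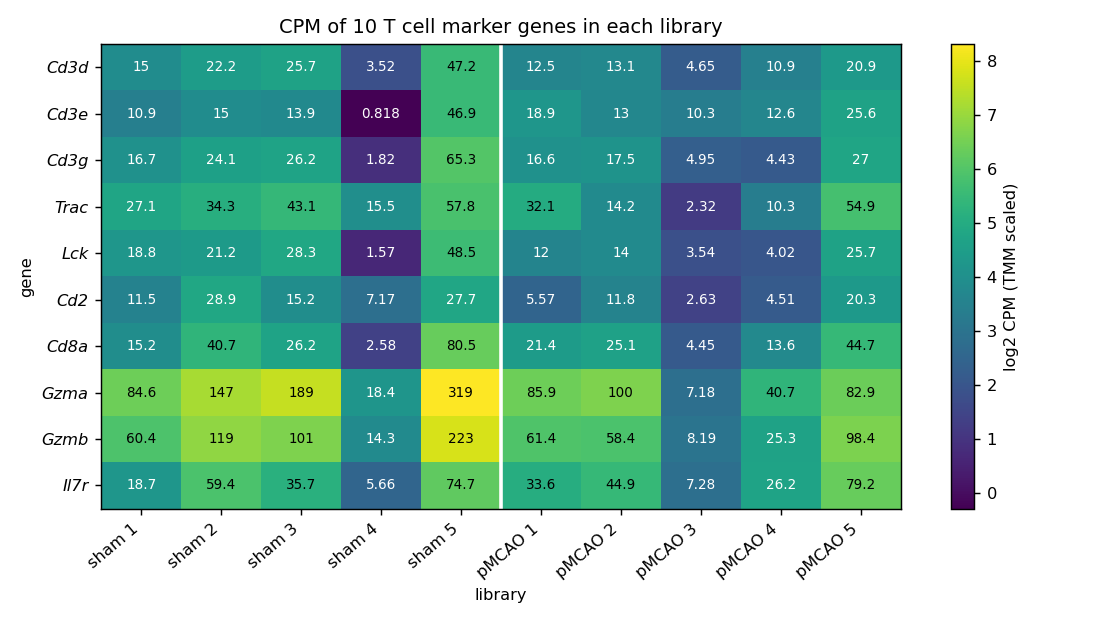
Level of the 10 T cell marker genes (rows) in each of the 5 sham and 5 pMCAO libraries (columns). Numbers are TMM-scaled CPM and colours their log2, and the columns of sham replicate 4 and pMCAO replicate 3 are dark for nearly each gene while sham replicate 5 is bright.

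The CD3 genes lie side by side on chromosome 9 (GRCm38, GENCODE M21). Cd3g is on the minus strand from 44969572 to 44980431, Cd3d on the plus strand from 44981786 to 44987339 and Cd3e on the minus strand from 44998740 to 45009627. Cd3g and Cd3d are transcribed away from each other from starts that are separated by 1354 bases. The granzyme genes lie apart, Gzma on chromosome 13 from 113093825 to 113100981 and Gzmb on chromosome 14 from 56258838 to 56262260, both on the minus strand. The 250 bases before the RefSeq start of these 5 genes (GRCm38.p6) are shown because most of the comparisons turn on the CD3 chains and the granzymes. RefSeq and GENCODE starts differ for Cd3e and Gzmb. For Cd3e the RefSeq start lies inside the GENCODE gene, so the last bases shown overlap that gene. For Gzmb it lies upstream of the GENCODE gene. Capitals mark matches on either strand to 4 short motifs: TGTGGT, bound by RUNX factors, CAGGAA, bound by ETS factors, AGATAA, bound by GATA factors, and CAGGTG, an E box.
Cd3g, chr9:44980432-44980681, minus strand: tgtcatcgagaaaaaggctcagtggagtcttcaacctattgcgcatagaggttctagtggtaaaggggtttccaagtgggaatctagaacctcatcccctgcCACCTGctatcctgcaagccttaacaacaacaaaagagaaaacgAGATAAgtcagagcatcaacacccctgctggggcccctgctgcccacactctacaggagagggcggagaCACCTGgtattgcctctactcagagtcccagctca
Cd3d, chr9:44981536-44981785, plus strand: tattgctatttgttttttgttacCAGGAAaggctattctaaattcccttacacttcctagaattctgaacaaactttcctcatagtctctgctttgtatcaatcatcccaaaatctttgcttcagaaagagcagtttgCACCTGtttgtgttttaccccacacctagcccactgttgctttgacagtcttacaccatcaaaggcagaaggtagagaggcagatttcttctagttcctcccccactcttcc
Cd3e, chr9:45009612-45009861, minus strand: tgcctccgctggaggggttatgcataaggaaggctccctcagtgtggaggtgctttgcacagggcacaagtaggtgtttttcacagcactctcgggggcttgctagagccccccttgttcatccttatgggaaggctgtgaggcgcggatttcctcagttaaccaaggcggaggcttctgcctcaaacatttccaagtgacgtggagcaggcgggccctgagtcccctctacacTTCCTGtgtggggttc
Gzma, chr13:113100982-113101231, minus strand: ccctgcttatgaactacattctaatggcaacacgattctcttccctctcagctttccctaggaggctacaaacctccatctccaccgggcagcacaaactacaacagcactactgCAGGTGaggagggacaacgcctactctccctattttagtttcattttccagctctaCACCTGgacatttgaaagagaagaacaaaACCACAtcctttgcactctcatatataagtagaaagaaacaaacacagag
Gzmb, chr14:56262335-56262584, minus strand: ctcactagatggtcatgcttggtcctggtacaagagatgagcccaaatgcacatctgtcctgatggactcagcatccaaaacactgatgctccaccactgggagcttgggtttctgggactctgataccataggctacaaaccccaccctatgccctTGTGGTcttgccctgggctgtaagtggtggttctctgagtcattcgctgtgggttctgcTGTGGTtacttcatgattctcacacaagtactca

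In the windows of 250 bases before to 50 bases after a start, Cd3g held a GATA match at -104 and E boxes at -148 and -35, counted from the start. Cd3d held an ETS match at -227 and an E box at -112. Cd3e held an ETS match at -16, which lies inside the GENCODE gene, and an E box at 4, just past the bases shown. Gzma held a RUNX match at -50 and E boxes at -135 and -79, and Gzmb held RUNX matches at -93 and -34. Windows were given for 8 of the 10 genes, 9 windows in all because Lck has 2. An E box was in 6 of the 9, an ETS match in 5, a RUNX match in 4 and a GATA match in 1. The shares were 20.2%, 30.6%, 16.8% and 11.2% of the 32851 windows kept from the genome table. Windows on 1 chromosome and windows of another length were left out of it.

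Among the CD3 genes, Cd3d, the delta chain, was at 15.0, 22.2, 25.7, 3.52 and 47.2 CPM in sham replicates 1 to 5 and at 12.5, 13.1, 4.65, 10.9 and 20.9 CPM in pMCAO replicates 1 to 5. Cd3g, the gamma chain, was at 16.7, 24.1, 26.2, 1.82 and 65.3 CPM in the sham libraries and at 16.6, 17.5, 4.95, 4.43 and 27.0 CPM in the pMCAO libraries. Cd3e, the epsilon chain, was at 10.9, 15.0, 13.9, 0.818 and 46.9 CPM in the sham libraries and at 18.9, 12.998, 10.3, 12.6 and 25.6 CPM in the pMCAO libraries. Each chain was lowest in sham replicate 4 and highest in sham replicate 5, so the pMCAO libraries lay inside the range of the sham libraries for all 3 genes. Sham replicate 4 held 13 counts of Cd3e and sham replicate 5 held 3626. Summed over the 3 genes, sham libraries ran from 6.16 to 159.4 CPM (median 61.2) and pMCAO libraries from 19.9 to 73.5 CPM (median 43.6). On the log2 scale the pMCAO mean was lower by a difference of -0.20, beside SDs of 1.74 (sham) and 0.73 (pMCAO), with 5 libraries each. The difference was -0.91 without sham replicate 4, 0.27 without sham replicate 5 and 0.38 without both libraries with Xist counts.

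The receptor and signalling markers followed a like course. Trac, the constant part of the alpha chain, was at 27.1, 34.3, 43.1, 15.5 and 57.8 CPM in sham replicates 1 to 5 and at 32.1, 14.2, 2.32, 10.3 and 54.9 CPM in pMCAO replicates 1 to 5. Lck was at 18.8, 21.2, 28.3, 1.57 and 48.5 CPM in the sham libraries and at 12.0, 14.05, 3.54, 4.02 and 25.7 CPM in the pMCAO libraries. Trac was lowest in pMCAO replicate 3 and Lck in sham replicate 4, and both were highest in sham replicate 5. Cd2 was at 11.5, 28.9, 15.2, 7.17 and 27.7 CPM in the sham libraries and at 5.57, 11.8, 2.63, 4.51 and 20.3 CPM in the pMCAO libraries. Cd8a was at 15.2, 40.7, 26.2, 2.58 and 80.5 CPM in the sham libraries and at 21.4, 25.1, 4.45, 13.6 and 44.7 CPM in the pMCAO libraries. Cd2 was the gene with its highest level in sham replicate 2.

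Gzma was at 84.6, 146.9, 189.4, 18.4 and 319.2 CPM in sham replicates 1 to 5 and at 85.9, 100.4, 7.18, 40.7 and 82.9 CPM in pMCAO replicates 1 to 5. Gzmb was at 60.4, 119.3, 101.4, 14.3 and 222.7 CPM in the sham libraries and at 61.4, 58.4, 8.19, 25.3 and 98.4 CPM in the pMCAO libraries. Both granzymes were lowest in pMCAO replicate 3 and highest in sham replicate 5. Il7r, whose product binds the survival factor interleukin 7, was at 18.7, 59.4, 35.7, 5.66 and 74.7 CPM in the sham libraries and at 33.6, 44.9, 7.28, 26.2 and 79.2 CPM in the pMCAO libraries. Il7r was the gene with its highest level in pMCAO replicate 5. Over the 10 genes, sham replicate 5 ranked highest for 8 and in the top 2 for 10, sham replicate 4 ranked lowest for 6 and pMCAO replicate 3 for 4, and pMCAO replicate 3 was among the lowest 3 for 10.

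Levels can be compared between genes only per length. As CPM per kilobase of exon, medians over the 10 libraries were 84.7 for Gzma, 42.4 for Gzmb and 31.7 for Trac, followed by 7.77 for Cd3d, 7.43 for Il7r, 6.69 for Cd2, 6.39 for Cd8a, 5.61 for Lck, 5.23 for Cd3g and 3.30 for Cd3e. Gzma was above Gzmb in 10 of 10 libraries, Gzmb above Trac in 9 and Trac above Cd3d in 9. The neighbours from Cd3d down to Cd3g were each ordered that way in only 4 to 8 of 10 libraries. Cd3e, placed last, was under Cd3g in 8 of 10. The last places depend on the length used, since with the longest coding transcript in place of all exons the medians were 16.7 for Cd3g, 9.21 for Cd3e and 8.72 for Cd3d. Beside them, medians per kilobase were 208 for Csf1r, the receptor for macrophage colony-stimulating factor, and 1908 for C1qb, a complement chain. Gzma reached 317.3 in sham replicate 5.

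Stroke was compared with sham surgery by the quasi-likelihood test of edgeR over all 16949 genes that passed its filter on low counts, and all 10 markers passed. At a false discovery rate (FDR) of at most 0.05, 0 of the 10 were called, as were 0.0% of all genes tested. DESeq2 and limma-voom also called 0 of the 10, with 0.0177% and 0.0% of all genes called. At an unadjusted p under 0.05 the count was 0 of 10, against 4.71% of all genes. The ranges of the groups overlapped for all 10 markers, and they failed to overlap for 0.985% of all genes tested. All 10 fitted differences were below 0, as were 50.6% of those of all genes, and the markers moved together over libraries, so these signs are not separate observations.

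The largest difference was that of Gzma, a log2 fold change of -1.26 ± 0.69 (standard error, adjusted p = 0.922 with edgeR). Gzmb had a log2 fold change of -1.04 ± 0.67, Cd2 of -0.998 ± 0.55 and Lck of -0.99 ± 0.70. The CD3 chains were at -0.93 ± 0.71 for Cd3g, -0.87 ± 0.54 for Cd3d and -0.13 ± 0.67 for Cd3e. Trac was at -0.64 ± 0.62, Cd8a at -0.59 ± 0.72 and Il7r at -0.02 ± 0.64. Standard errors ran from 0.54 to 0.72, so these 10 libraries could measure a fold change only coarsely. Without sham replicate 4, 6 of the 10 (Gzma, Gzmb, Cd2, Lck, Cd3d and Cd3g) had an unadjusted p under 0.05, where 6.87% of all genes did, and 0 passed the FDR limit (smallest adjusted p = 0.708 with edgeR). Without sham replicate 5 the log2 fold change was 0.65 for Cd3e, 0.35 for Il7r and 0.038 for Cd8a, so their sign turned without it. The other 7 lay nearer to 0 than with it, at -0.80 for Gzma and Cd2, -0.56 for Gzmb and Lck, -0.43 for Cd3d, -0.41 for Trac and -0.29 for Cd3g, and 0 of the 10 had an unadjusted p under 0.05. Without both libraries with Xist counts they were -0.68 for Gzma, -0.63 for Cd2, -0.39 for Gzmb, -0.38 for Cd3d, -0.34 for Lck, -0.22 for Trac and -0.065 for Cd3g, while Cd8a (0.17), Il7r (0.46) and Cd3e (0.73) were above 0. Without pMCAO replicate 5, 1 of the 10 (Cd2, at -1.55 ± 0.52) had an unadjusted p under 0.05, against 4.58% of all genes, and 0 passed the FDR limit.

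**Figure D2:**
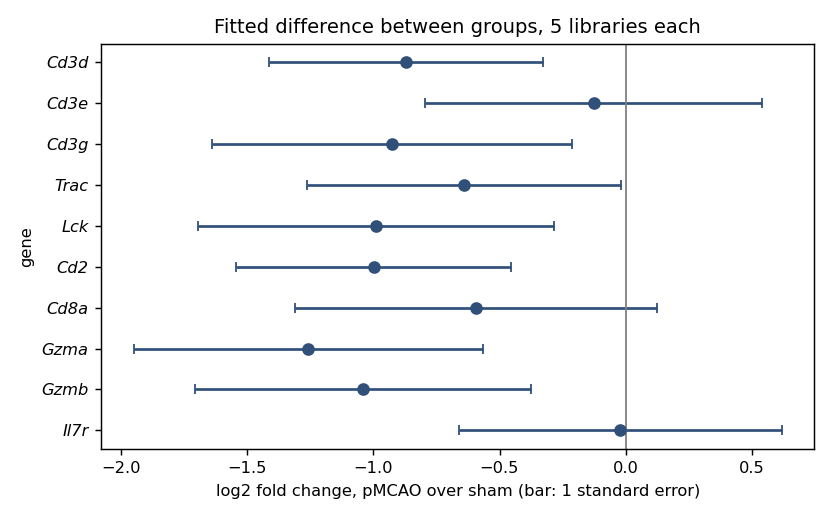
Fitted log2 fold change of pMCAO over sham for each marker gene (points) with 1 standard error (bars), 5 libraries per group. The points run from -1.26 for Gzma to -0.02 for Il7r, and the vertical line marks 0.

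The markers co-varied over the 10 libraries. Over the 45 pairs of markers, Pearson's r of log2 CPM ran from 0.39 to 0.99 with a median of 0.86, and Spearman's rho from 0.66 to 0.99 with a median of 0.85. The highest r was that of Cd3g with Lck (0.99), followed by Cd8a with Il7r (0.98) and Gzma with Gzmb (0.97). The lowest were those of Cd3e with Trac (0.39) and with Cd2 (0.40). With the group means taken out, the median r over the pairs was 0.90, so the shared course was present within the groups. With Cd3e, the median r was 0.81 for the other markers and 0.02 over all 16948 other genes tested. By r with Cd3e among these 16948 genes, Cd2 ranked 4061 and Trac 4187.

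**Figure D3:**
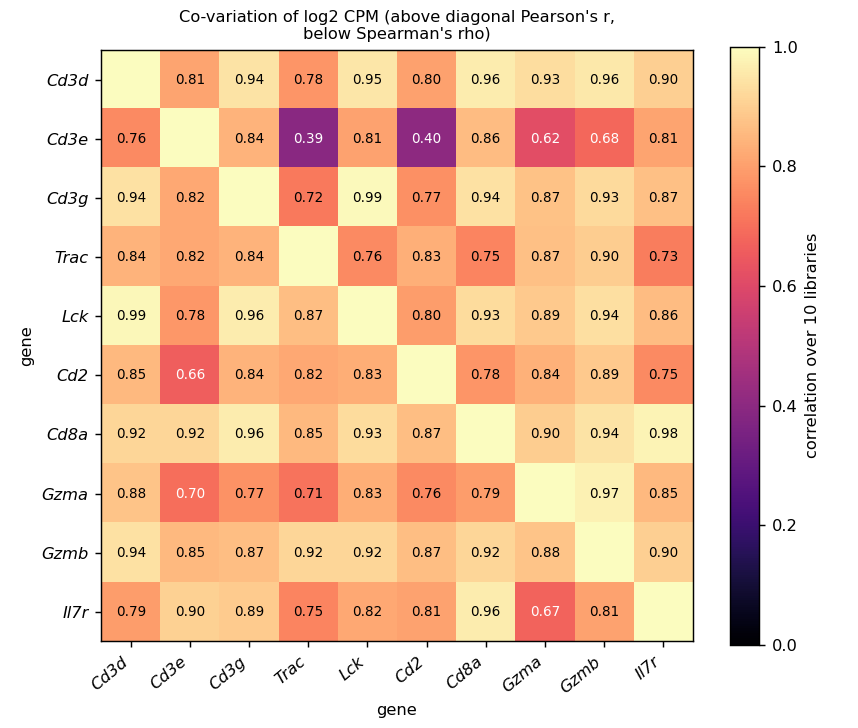
Correlation of log2 CPM over the 10 libraries for each pair of marker genes, with Pearson's r above the diagonal and Spearman's rho below it. The pale cells of Cd3g with Lck (0.99) contrast with the dark cells of Cd3e with Trac (0.39) and Cd2 (0.40).

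The relation of each other marker to Cd3e, 9 relations in all, was tested by permutation of the libraries (two-sided, 100000 resamples) with Benjamini-Hochberg adjustment over the 9. Cd8a had r = 0.86 (permutation p = 9.0e-05, adjusted p = 0.00072) and rho = 0.92. Il7r had r = 0.81 (permutation p = 0.00016, adjusted p = 0.00072) and rho = 0.90. Cd3g had r = 0.84, Cd3d r = 0.81, Lck r = 0.81 and Gzmb r = 0.68, with adjusted permutation p between 0.00135 and 0.0379. Gzma, with r = 0.62 (adjusted permutation p = 0.094), Trac, with r = 0.39 (adjusted permutation p = 0.225), and Cd2, with r = 0.40 (adjusted permutation p = 0.254), did not pass. With Cd3g in place of Cd3e, r was 0.87 for Gzma, 0.72 for Trac and 0.77 for Cd2. All 9 relations to Cd3g passed (highest adjusted permutation p = 0.0184). With the group means taken out, all 9 relations to Cd3e passed (highest adjusted p = 0.00514, permutation within groups). By rank all 9 relations to Cd3e passed over the 10 libraries, with rho from 0.66 for Cd2 to 0.92 for Cd8a and the highest adjusted permutation p at 0.0425. Sham replicates 4 and 5 were the libraries farthest from the median of Cd3e, and without both r was between 0.42 and 0.77. Without sham replicate 4 alone, r was between 0.58 and 0.81 and 0 of the 9 relations passed by Pearson's r (lowest adjusted p = 0.0718, exact permutation test), so passing by Pearson's r rests on that library. By rank 5 of the 9 passed without it (Trac, Cd8a, Il7r, Gzmb and Cd3g, adjusted p between 0.0135 and 0.0459, exact permutation test), and r was higher without it for Trac (0.65), Cd2 (0.58) and Gzmb (0.70). Without both libraries with Xist counts r was between 0.30 and 0.89, and 5 of the 9 passed by r (Cd3d, Cd3g, Lck, Cd8a and Il7r) and 0 by rank.

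The share of Cd3e in the counts of the CD3 trio differed between libraries. In the sham group Cd3e made up 25.5%, 24.4%, 21.2%, 13.3% and 29.4% of the summed CD3 counts in replicates 1 to 5. In the pMCAO group it made up 39.4%, 29.8%, 51.8%, 45.0% and 34.8%. The groups did not overlap, but the highest sham library and the lowest pMCAO library were next to each other, with 95% Wilson intervals of 28.6% to 30.2% in sham replicate 5 and 27.2% to 32.5% in pMCAO replicate 2. Cd3d took 29.6% to 57.1% in the sham group and 23.4% to 39.1% in the pMCAO group, and Cd3g 29.6% to 41.0% and 15.9% to 40.1%, both with overlap. This split was noticed after the values were seen, so it is a description with no test, and intervals cover counting error only. Of the 8 other markers taken as a ratio to Cd3d plus Cd3g, Cd3e alone had groups that did not overlap, which held for 0.242% of all genes. Without the ratio it held for 0.985% of all genes. Each ratio carries the wide spread of Cd3d plus Cd3g, so the 0.242% does not show how rare such a split is.

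Several features of Cd3e bear on how its counts are read, and their part in the share was not tested. Of its 4 annotated transcripts 3 retain an intron, and its exons add up to 4080 bases where its longest coding transcript has 1462. This length feature is not particular to Cd3e, since Cd3g has 3269 and 1023 bases, while Cd3d has 1815 and 1617. Of the 3 transcripts of Cd3g and the 3 of Cd3d, 1 each retains an intron. Its exons overlap 135 bases of Gm48719, an antisense gene that is not in the table, which is 3.31% of the exon length. The sources used here do not say whether counting used strand. Summed CD3 counts were 98 in sham replicate 4, 197 in pMCAO replicate 3, 327 in pMCAO replicate 1 and 340 in pMCAO replicate 4, against 1161 or more in the other 6 libraries.

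**Figure D4:**
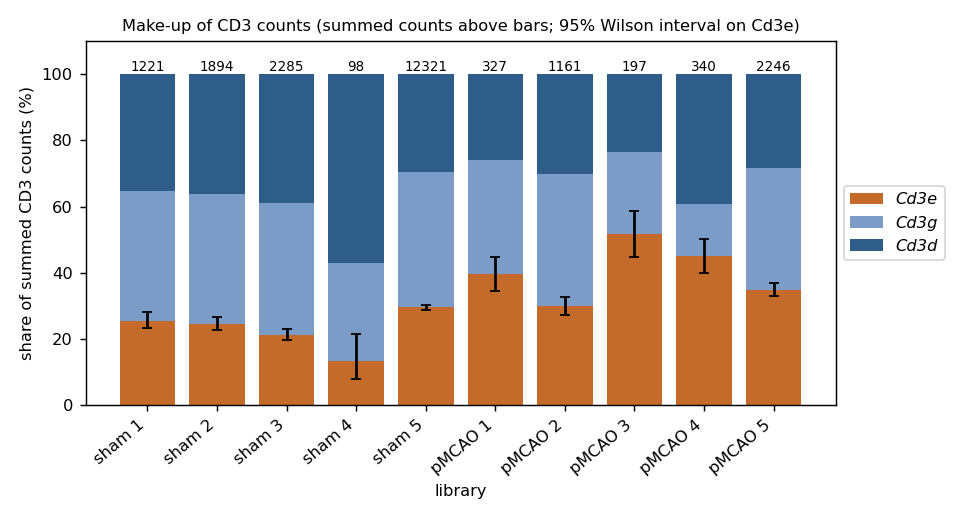
Share of Cd3e, Cd3g and Cd3d in the summed CD3 counts of each library (stacked bars, percent), with the summed counts above and the 95% Wilson interval of Cd3e as black bars. Cd3e takes 13.3% to 29.4% in the sham libraries and 29.8% to 51.8% in the pMCAO libraries.

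Other parts of the receptor were read from 7 genes for the receptor constant regions and the zeta chain, and 0 of the 7 were called, with a median log2 fold change of -0.63 where that of all genes was -0.01. Trbc1, a beta constant gene, was at 7.42 to 115.7 CPM in the sham group and 5.36 to 61.9 CPM in the pMCAO group. Its log2 fold change was -1.03 ± 0.64 (adjusted p = 0.922 with edgeR). Trdc, the delta constant gene, was at 7.52 to 36.3 CPM and 0.910 to 22.0 CPM. Both were highest in sham replicate 5 and lowest in pMCAO replicate 3, as Trac was. Cd247, the zeta chain gene, was at 1.45 to 15.3 CPM and 0.808 to 18.5 CPM.

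The mRNA of constant genes of both kinds of T cell receptor was present in each library. The shares below are of counts, without length scaling, and do not give a share of cells. Gamma and delta constant genes took 40.6%, 37.7%, 35.6%, 35.2% and 49.5% of the counts of all receptor constant genes in sham replicates 1 to 5. They took 34.8%, 56.1%, 35.8%, 51.2% and 49.0% in pMCAO replicates 1 to 5. The groups overlapped, and the widest interval was that of pMCAO replicate 3 (29.7% to 42.3%, 95% Wilson, with 78 gamma and delta and 140 alpha and beta counts). Variable region genes were listed in 16 rows. All 16 had counts in sham replicates 1, 2, 3 and 5 and in pMCAO replicate 5, against 7 in sham replicate 4 and 4 in pMCAO replicate 3.

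**Figure D5:**
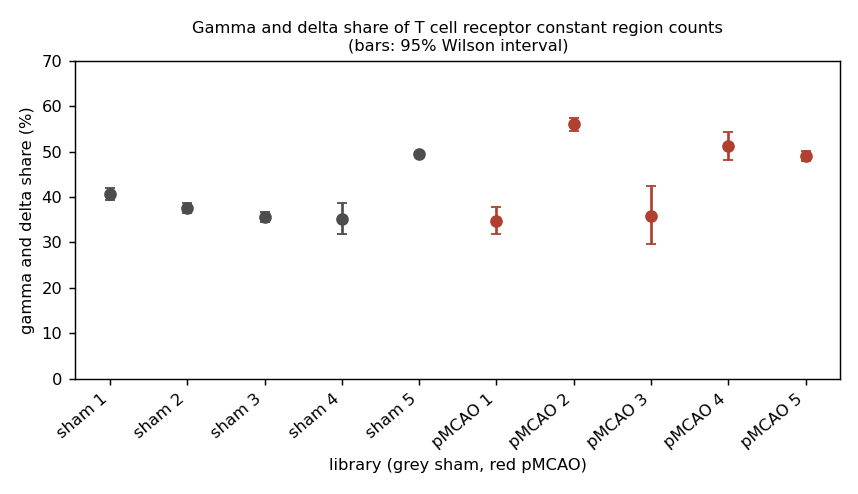
Gamma and delta share (percent) of the counts of T cell receptor constant genes in each library, with 95% Wilson intervals. The sham libraries lie between 35.2% and 49.5% and the pMCAO libraries between 34.8% and 56.1%.

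The wider T cell gene lists held 0 called genes. Of 20 receptor signalling genes 15 had a fitted difference below 0 and 5 above, with a median log2 fold change of -0.47, and of 13 lineage regulators 12 were below and 1 above, with a median of -0.32. All 8 genes of gut homing and intraepithelial T cells and all 11 cytotoxic genes tested were below 0, with medians of -0.34 and -0.50. Of 12 subset and helper genes 8 were below and 4 above, with a median of -0.29. Of all genes tested 50.6% were below 0, and genes read in the same libraries are not separate observations. Other lists also leaned below 0: natural killer (8 of 8), B cell (9 of 10), mast cell (6 of 6), epithelial (13 of 20) and innate lymphoid (6 of 10). Fewer were below 0 for macrophage (8 of 15), dendritic (4 of 12), plasma (4 of 10), stromal and endothelial (4 of 13) and neutrophil and eosinophil genes (2 of 5). Itgae, the integrin chain that holds T cells at the epithelium, was at 16.9 to 296.8 CPM in the sham group and 10.5 to 154.5 CPM in the pMCAO group, and Ccr9, the receptor for the gut chemokine CCL25, at 8.93 to 186.2 CPM and 23.2 to 163.5 CPM. Ccl5, a chemokine of cytotoxic cells, was at 28.1 to 420.6 CPM and 47.8 to 170.3 CPM. Prf1, the pore-forming perforin, was at 0 counts in sham replicate 4 and at most 7.62 CPM elsewhere. Cd4 went another way, with 113.1 to 178.8 CPM in the sham group, its highest level in sham replicate 4 and r = -0.66 with Cd3e. As background, intestinal macrophages can also make Cd4.

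By r over the 10 libraries, the genes most like Cd3e among those that are not markers included the gamma variable gene Trgv2 (0.97), Tbc1d22bos, Tet1, Tmem156, Gm3940, Irgq, Map2, the B cell regulator Ebf1 (0.95) and Foxp3, the regulator of regulatory T cells (0.95). Of these, Trgv2, Tbc1d22bos, Gm3940, Map2, Ebf1 and Foxp3 had 0 counts in at least 1 library. The least like were Klc4 (-0.96), Rcbtb2 (-0.95) and Pkp4 (-0.93). An r of at least 0.8 was reached by 381 genes (2.25%), 18 of them in the T cell lists. These are descriptions, since the 10 libraries share their scaling and sham replicates 4 and 5 lie at the ends.

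Markers of other cell types were set beside Cd3e in 11 relations, total counts included, with the same permutation test adjusted over the 11. The B cell list rose with Cd3e, with r = 0.70 and rho = 0.77 (adjusted permutation p = 0.0282 for r). Its 10 genes summed to 135.1 to 570.3 CPM in the sham group and 157.9 to 594.7 CPM in the pMCAO group, and Cd79a, Ms4a1, Pax5 and Blk had 0 counts in at least 1 library. The innate lymphoid list had r = 0.75 and rho = 0.87 (adjusted permutation p = 0.0282 for r), with 162.9 to 534.2 CPM and 174.0 to 464.5 CPM, and Areg and Klrg1 at 0 in at least 1 library. Id2, Kit and Il1rl1, which other cells of the gut also use, weighed on that sum, and without them r was 0.53 (adjusted permutation p = 0.327) and rho 0.85 (adjusted permutation p = 0.0334). The natural killer list had r = -0.66 (adjusted permutation p = 0.0282), rho = -0.81 and sums of 1339 to 2364 CPM and 1376 to 2459 CPM. Most of its sum came from Fcer1g and Tyrobp, which macrophages also make. Without these genes r was 0.60 (adjusted permutation p = 0.24), and Ncr1, a receptor of natural killer cells, was at 0.838 to 17.6 CPM in the sham group and 0.440 to 8.74 CPM in the pMCAO group. With CPM on total counts in place of TMM, the full natural killer list had r = -0.36 (adjusted permutation p = 0.618). Both shortened lists were chosen after the values were seen. Without both farthest libraries r was 0.57 for the B cell list, 0.87 for the innate lymphoid list and -0.74 for the natural killer list. Without both libraries with Xist counts r was 0.67, 0.68 and -0.60 in the same order, and 0 of the 11 relations passed.

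Within each group, the macrophage list was lowest in the library with the highest summed T cell markers, sham replicate 5 (8689 CPM) and pMCAO replicate 5 (9467 CPM). This order did not hold over all libraries, since sham replicate 3 had the highest macrophage sum (19307 CPM) and more T cell marker CPM (505.2) than pMCAO replicate 5 (479.6). By summed CD3 CPM, without the granzymes, sham replicate 3 (65.8) was under pMCAO replicate 5 (73.5). The relation of the macrophage list to Cd3e had r = -0.53 and rho = -0.67 (adjusted permutation p = 0.297 for r). Without sham replicate 4 it had r = -0.86 (adjusted p = 0.00908, exact permutation test). Dendritic cell (r = 0.48), plasma cell (0.47), mast cell (0.43), epithelial (-0.09), stromal and endothelial (-0.28) and neutrophil and eosinophil lists (-0.40) did not pass, with adjusted permutation p between 0.327 and 0.797. The dendritic cell list passed with CPM on total counts (r = 0.76, adjusted permutation p = 0.0208), and the mast cell list passed with the group means taken out (r = 0.77, adjusted permutation p = 0.00687) and with Cd3g in place of Cd3e (r = 0.78, adjusted permutation p = 0.029). Total counts did not pass (r = 0.26, adjusted permutation p = 0.522). Mast cell genes were highest in sham replicate 5 and lowest in pMCAO replicate 3, as both granzymes were, with sums of 2137 to 20360 CPM in the sham group and 434.3 to 6642 CPM in the pMCAO group. Mcpt1, a mast cell protease, had a log2 fold change of -1.86 ± 0.68 (adjusted p = 0.922 with edgeR). The part of any of these cell types in the T cell marker levels was not tested.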

How the data were processed

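Counts per gene were deposited by the authors for 5 sham and 5 pMCAO libraries, with 17279 genes listed, each with at least 10 counts in 2 or more libraries. The authors' deposited table also holds their CPM values, relative to the sum of listed genes, and their log2 fold changes, mean log2 expression, p-values and FDR from comparing the groups, none of which was used. The submitters' processing notes name STAR, featureCounts, limma, GRCm38 and mm10 without versions. The libraries were made from total RNA after removal of ribosomal RNA. The reporting paper describes other libraries, so its methods were not applied here, and the collection days, the strand setting of the counts and any batch are not given in the sources used here.

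Here, filterByExpr kept 16949 genes, TMM set the library sizes, and edgeR 4.0.16 (R 4.3.3) compared pMCAO against sham by its quasi-likelihood test without covariates, with Benjamini-Hochberg adjustment over all genes tested. The quasi-likelihood test gives no standard error, so those given with edgeR are the absolute log2 fold change over the square root of the F statistic. Log2 CPM used a prior count of 2. Alternatives were DESeq2 1.42.0, limma-voom (limma 3.58.1), upper-quartile scaling, other filters and prior counts, CPM on total counts, Cd3g in place of Cd3e, deviations from group means, leaving out immunoglobulin genes, both pooled libraries or both libraries with Xist counts, the replicate number as a block, and leaving out each library in turn. The fits were tested on simulated data. Correlations used permutation tests computed with numpy 2.4.6, exact below 10 libraries, and ranks from scipy 1.17.1. The markers and gene lists were chosen with earlier results of these data known. Named beside the markers are, in each T cell list, the 3 genes with the highest mean CPM and a fixed set of lineage genes, the 2 highest of the other lists, and the 10 genes most and 3 genes least like Cd3e. Not all of them are described, and 1 of the genes most like Cd3e is not reported here. Genes with 0 counts in a library were named after their values were seen.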

Additional observations from a re-analysis of the deposited data

Results flagged for a closer look

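Of 50 sets of 5 libraries, 4 had an end library whose gap to its neighbour exceeded 0.71 of the whole spread (Dixon limit), where chance gives about 2.5. The 50 sets share libraries and genes. Lck was low in sham replicate 4 (gap 0.721 of the range), the library in which 6 of the 10 markers were lowest. The Cd3g share of CD3 counts was low in sham replicate 4 (gap 0.848), at 29.6% of 98 counts. The summed natural killer list was high in pMCAO replicate 3 (gap 0.820), where Fcer1g and Tyrobp make up most of the sum. The summed stromal and endothelial list was high in pMCAO replicate 4 (gap 0.765), where Lyve1 reached 246.5 CPM. The cause was not tested for any of them.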

How the results depend on the processing

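Of the 10 markers 0 were called under each of 19 alternatives. Over all genes 0 were called under edgeR and 3 under DESeq2, and no other alternative called any. The count of relations to Cd3e that passed was 6, and leaving out 1 library gave 0 to 7, with 0 without sham replicate 4. It was 9 with the group means taken out and 9 with Cd3g in place of Cd3e. The count of other cell type relations that passed was 3, and it was 1 without both pooled libraries and 0 without both libraries with Xist counts, with 0 to 3 when 1 library was left out (0 without sham replicate 5 or pMCAO replicate 5). The sign changed for Cd3e with limma-voom (0.094), with the replicate block (0.41), without both libraries with Xist counts (0.73) and without sham replicate 5 (0.65). It changed for Cd8a without both libraries with Xist counts (0.17) and without sham replicate 5 (0.038). For Il7r it changed with limma-voom (0.14), upper-quartile scaling (0.0029), the replicate block (0.11), without both libraries with Xist counts (0.46) and without sham replicate 2 (0.18), sham replicate 5 (0.35), pMCAO replicate 1 (0.02), pMCAO replicate 3 (0.23) or pMCAO replicate 4 (0.08). Leaving out 1 library gave -0.43 to 0.65 for Cd3e, -1.04 to 0.038 for Cd8a and -0.47 to 0.35 for Il7r. The natural killer relation turned to 0.60 without Fcer1g and Tyrobp. The summed CD3 difference ran from -0.91 to 0.38. The labels tie same-numbered libraries to no shared animal or day, so the numbers were not taken as pairs. The correlations of their deviations were 0.05, 0.34, -0.01, 0.23 and 0.37, and 5 of 10 libraries correlated best with their own number. Immunoglobulin shares for replicates 1 to 5 were 5.15%, 16.3%, 6.36%, 0.586% and 4.56% (sham) and 6.26%, 19.2%, 0.938%, 0.914% and 5.44% (pMCAO). Whether the numbers mark a shared factor was not tested, and the main fit does not allow for one. With the replicate block 0 genes were called (smallest adjusted p = 0.173 with edgeR, against 0.922) and 1303 had an unadjusted p under 0.05, against 799 without it. Cd2 was among the 1303, at -1.17 ± 0.33 (unadjusted p = 0.00633). The cause of these changes was not tested. Markers with few counts, such as 13 of Cd3e in sham replicate 4, limit the precision of that library.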
